A study of Mus musculus with 4 samples.

Results

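Genes of glycolysis and of the response to hypoxia were examined in thioglycollate-elicited peritoneal macrophages, on the 4 arrays of a design that crossed genotype with lipid A stimulation. The list held 34 genes, and 18193 genes had a probe set on the arrays annotated with 1 gene symbol. It was drawn up by name and not by a cut on values, though with earlier results of these data known. Of these 34 genes, 31 had a probe set annotated with that single gene symbol, and each was represented by its brightest probe set over the 4 arrays. Gapdh was annotated only on control probe sets and on probe sets shared with other genes, and signals of Gpi1 and Eno1 were not analysed here. The promoters of these genes are part of the promoter counts below. WT mice were +/+:Setdb1 fl/fl and KO mice LysM Cre/+:Setdb1 fl/fl on the C57BL6/J background, so that both genotypes carried the floxed Setdb1 alleles and only KO mice carried Cre. Cre was driven by the lysozyme promoter, which is active in macrophages and also in neutrophils and other myeloid cells. Macrophages of each genotype received vehicle or lipid A, the part of lipopolysaccharide that activates TLR4, for 4 h, at a dose given as 10 ng/ml in the series text and as 10 µg/ml in the sample labels. Each of the 4 groups was measured on 1 array, the age, sex and number of mice behind an array are not given in the sources used here, and no difference had a replicate check or a p-value.

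Glycolysis breaks glucose down to pyruvate, which is turned to lactate or enters mitochondria. Macrophages activated through TLR4 are known to take up more glucose and to release lactate, and the transcription factor HIF-1α, encoded by Hif1a, drives many genes of this pathway. HIF-1α protein is marked for destruction by oxygen-dependent prolyl hydroxylases, which Egln1 and Egln3 encode, so that its activity is set largely at the protein level, which the arrays did not measure. HIF binds a short core in DNA, ACGTG or GCGTG, known as the hypoxia response element.

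To show where these letters lie in genes that differed between arrays, the 250 bases before the RefSeq start of transcription (GRCm38.p6) are given for 4 genes of the list with a match and a lipid A signal over 2-fold above vehicle, in Adm by a ratio to a background signal. These are Slc2a6 (chr2:27027999-27028248, minus strand), Adm (chr7:110627407-110627656, plus strand), Hk2 (chr6:82774455-82774704, minus strand) and P4ha1 (chr10:59323046-59323295, plus strand), each printed 5′ to 3′ on the strand of the gene. Capitals mark ACGTG or GCGTG on that strand and their reverse complements, CACGT and CACGC.
Slc2a6: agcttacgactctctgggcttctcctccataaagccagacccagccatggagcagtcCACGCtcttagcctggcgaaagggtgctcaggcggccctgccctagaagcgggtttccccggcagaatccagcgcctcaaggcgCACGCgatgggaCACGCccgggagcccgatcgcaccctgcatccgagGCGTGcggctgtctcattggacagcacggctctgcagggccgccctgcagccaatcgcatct
Adm: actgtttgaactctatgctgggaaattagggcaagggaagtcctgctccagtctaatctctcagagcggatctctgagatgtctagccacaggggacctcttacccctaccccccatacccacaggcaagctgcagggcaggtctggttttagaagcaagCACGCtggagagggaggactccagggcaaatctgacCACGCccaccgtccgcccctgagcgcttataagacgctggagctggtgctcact
Hk2: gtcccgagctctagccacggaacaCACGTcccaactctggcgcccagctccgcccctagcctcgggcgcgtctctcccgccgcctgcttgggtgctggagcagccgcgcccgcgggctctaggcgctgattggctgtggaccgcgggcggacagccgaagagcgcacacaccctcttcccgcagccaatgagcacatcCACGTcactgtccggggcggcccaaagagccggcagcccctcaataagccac
P4ha1: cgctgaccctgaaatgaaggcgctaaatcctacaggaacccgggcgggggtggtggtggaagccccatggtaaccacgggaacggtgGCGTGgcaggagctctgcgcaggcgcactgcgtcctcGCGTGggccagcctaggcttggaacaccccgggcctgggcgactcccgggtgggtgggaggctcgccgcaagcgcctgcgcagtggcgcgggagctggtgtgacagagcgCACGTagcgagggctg
Slc2a6 held 4 matches of GCGTG, the nearest starting 62 bases before the start, and Adm held 2. Both matches of Hk2 were of ACGTG, and P4ha1 held 2 of GCGTG and 1 of ACGTG, which began 16 bases before the start.

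For comparison, 2 genes that were over 2-fold lower with lipid A in KO macrophages are shown in the same way. Bnip3 (chr7:138909507-138909756, minus strand) and Pdk1 (chr2:71872974-71873223, plus strand) were chosen for this after their values were seen.
Bnip3: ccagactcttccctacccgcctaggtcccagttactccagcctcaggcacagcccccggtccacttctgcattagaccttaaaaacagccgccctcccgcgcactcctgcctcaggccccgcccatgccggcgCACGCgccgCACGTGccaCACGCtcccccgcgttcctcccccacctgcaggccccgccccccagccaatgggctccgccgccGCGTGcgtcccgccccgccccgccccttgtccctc
Pdk1: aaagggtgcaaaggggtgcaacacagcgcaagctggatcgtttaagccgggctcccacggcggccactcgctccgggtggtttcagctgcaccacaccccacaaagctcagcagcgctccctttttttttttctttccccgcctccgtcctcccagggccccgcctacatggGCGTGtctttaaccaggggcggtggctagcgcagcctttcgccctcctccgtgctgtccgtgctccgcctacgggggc
Bnip3 held 5 matches, of which 2 overlapped on opposite strands as CACGTG, a sequence known as an E-box that other transcription factors also bind, and Pdk1 held 1. Genes higher and lower with lipid A both held the letters. Over the list, 32 genes had a promoter in the RefSeq table, Ndrg1 and Slc2a3 being the other two, and 29 of them (90.6%) held at least 1 match, against 47.1% of 17491 protein-coding genes. Counted by promoter, since some genes have several, 37 of 45 (82.2%) held a match against 44.0%. For ACGTG alone, counted by gene again, the shares were 56.2% and 20.0%. Both motifs contain CG, and the median share of G and C in these 250 bases was 61.6% in the promoters of the list and 55.6% in those of protein-coding genes, whose part in the higher share was not tested. The list was drawn up to hold genes of the hypoxia response, so its higher share is not an independent result.

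The median signal over probe sets that are not controls lay between 65.1 and 84.2 on the 4 arrays, and lower signals were treated as background. A gene counted as detected between 2 arrays if its brighter signal was at or above that array's median. Where 4 signals follow each other below, the WT pair comes before the KO pair, and vehicle before lipid A within each pair. By this measure 27 of the 31 genes reached the median on 4 arrays, Egln3, Slc16a3 and Adm did so on 3, and Ankrd37, a small ankyrin repeat gene induced by hypoxia, on 0. The SD between probe sets of 1 gene was 0.39 in WT and 0.46 in KO for the log2 lipid A response, which is technical and leaves out differences between mice. Setdb1 itself gave 589 with vehicle and 521 with lipid A in WT, and 346 and 386 in KO, and since its probe sets were not placed against the deleted exons this does not check the labels. Lipid A signals of Cxcl10, an interferon-induced chemokine, exceeded vehicle by at least 291-fold in WT and 146-fold in KO, and those of Il1b, an inflammatory cytokine, by 12.5-fold and at least 512-fold. All 6 macrophage markers reached the median on every array, with a summed signal of 176928 and 187557 in WT and of 149575 and 142091 in KO. Under lipid A 6 of the 6 were lower in KO than in WT, with a median log2 difference of -0.40, against 50.8% of all detected genes. Under vehicle 5 were lower, against 41.9%, and Adgre1 passed 2-fold at 2.73-fold lower in KO (10187 and 3726). Markers of B cells were higher in KO, with a summed signal of 349 and 290.1 on the WT arrays and of 3707 and 3862 on the KO arrays over 5 genes, of which 2, 1, 5 and 3 reached the median on the 4 arrays, whereas the 7 markers of mesothelium and fibroblasts summed to 1535 and 1348 in WT and to 857 and 654 in KO, with 4 of them at the median on each WT array and 5 on each KO array. The neutrophil markers S100a8 and others, 5 in all, summed to 1856 and 1929.9 in WT and to 812 and 869.8 in KO with 2 at the median on every array. Most of each sum was S100a8, which gave 1727, 1721, 569 and 676. Under vehicle S100a9, Ngp and Ltf had higher signals in KO than in WT and Camp a lower one, each with a background signal. The 3 markers of T and NK cells summed to between 94.3 and 274 with 0 to 3 at the median, and 0 of 3 mast cell markers reached the median on any array. The part of these cells in the values below was not tested, and fewer cells of a type and less RNA per cell cannot be told apart in such samples.

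**Figure D1:**
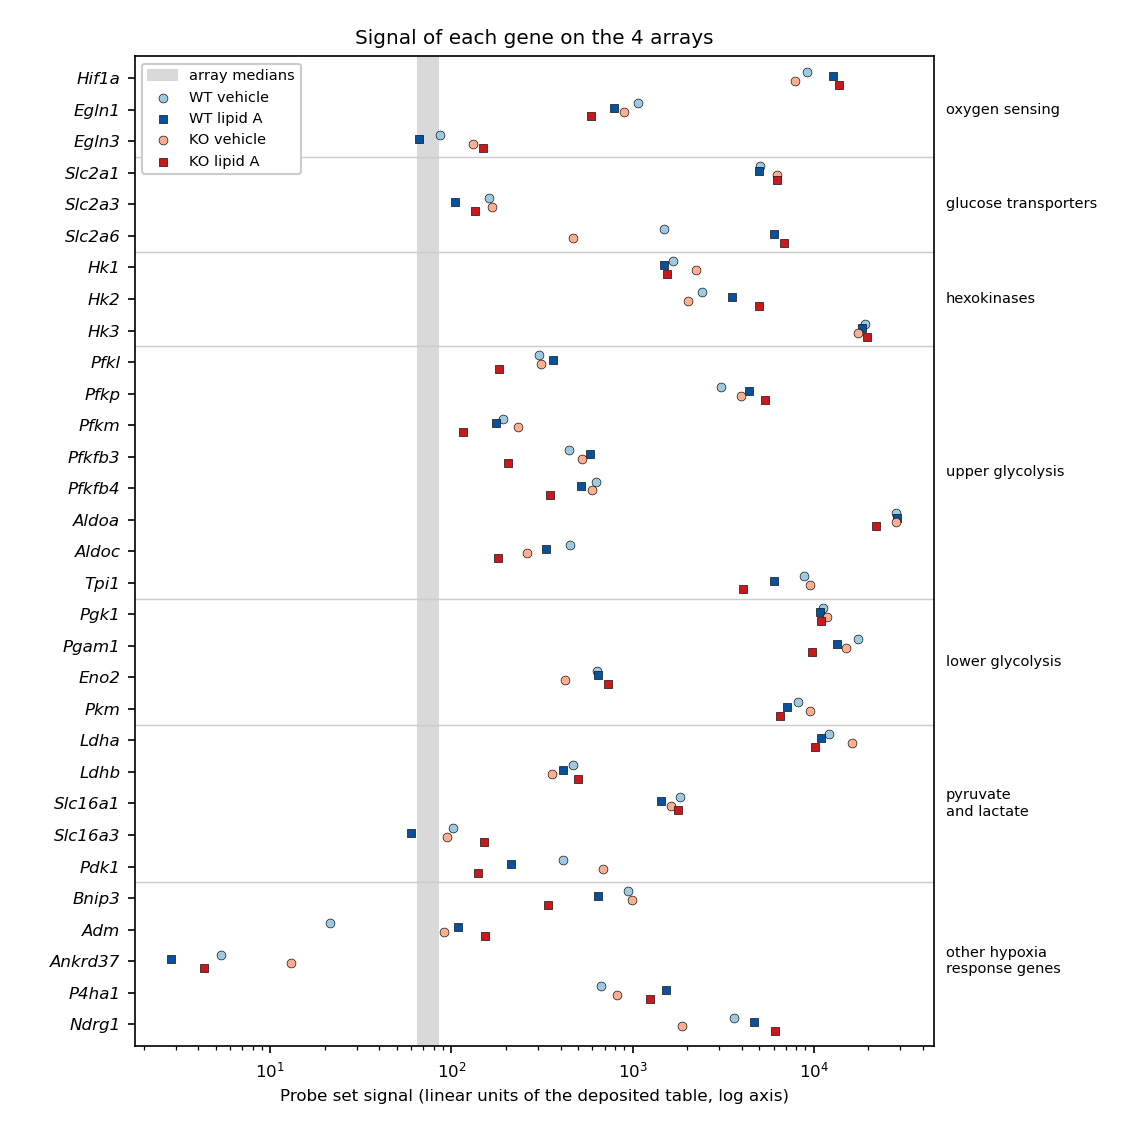
Signals of the 31 genes on a log axis, ordered by their role, with 1 point for each of the 4 arrays. The grey band spans the array medians, 65.1 to 84.2, with background under it, and all 4 signals of Ankrd37 lie below it. Slc2a6 shows both lipid A arrays above both vehicle arrays by over 2-fold.

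In WT macrophages, lipid A left most glycolysis and hypoxia response genes within 2-fold of their vehicle signal. Of 30 detected genes, 3 were over 2-fold higher with lipid A (10.0%), namely Slc2a6, P4ha1 and, by a ratio to a background signal that bounds it only at 1.67-fold or more, Adm, while 11.8% of 12129 detected genes were higher by this measure. None was over 2-fold lower, against 8.94% of all detected genes, and Pdk1 came nearest with a ratio of 1.94. The median log2 difference of the list was -0.13 and that of all detected genes -0.08. With both WT arrays required to reach their median, 2 of 27 genes were higher, or 7.41% against 5.28% of all genes so measured.

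In KO macrophages, lipid A gave differences in both directions. Slc2a6, Ndrg1 and Hk2 were over 2-fold higher, and Pdk1, Bnip3, Pfkfb3 and Tpi1 were over 2-fold lower. The 3 higher genes made up 10.0% of the 30 detected genes against 11.2% of 12293 genes, and the 4 lower genes 13.3% against 16.0%. All 30 genes reached the median on both KO arrays, and among the 9745 genes for which this held, 5.82% were higher and 10.0% lower, so that the shares of the list lay below those of all detected genes and above those of genes detected on both arrays. The median log2 difference was -0.22 for the list and -0.20 for all detected genes.

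**Figure D2:**
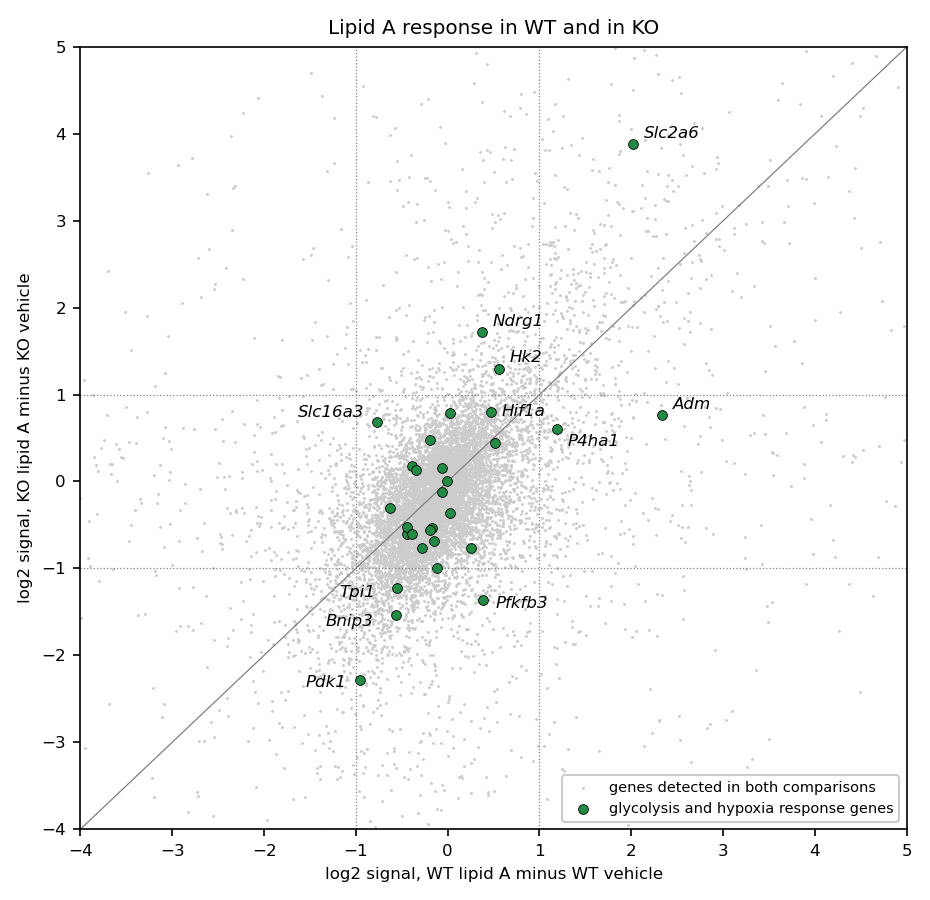
Log2 difference between lipid A and vehicle in WT (horizontal) and in KO (vertical), with 1 green point per gene of the list and grey points for other genes detected in both comparisons, and genes beyond the axes are not drawn. Dotted lines mark 2-fold and the diagonal marks equal responses. Slc2a6 lies highest among the green points at 2.02 and 3.88, and Pdk1 lowest at -0.96 and -2.29.

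Hif1a was among the genes of oxygen sensing with signals far above background. Its signal was 9238 with vehicle and 12835 with lipid A in WT, and 7851 and 13709 in KO. Both lipid A arrays were thus above both vehicle arrays, by 1.39-fold in WT and 1.75-fold in KO, below the 2-fold threshold. A further probe set gave 1096 and 1719 in WT and 921 and 1470.4 in KO, also with both lipid A arrays above both vehicle arrays, and another gave a lower signal with lipid A in WT (268 and 232) and a higher one in KO (126 and 293).

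Egln1, the main prolyl hydroxylase that marks HIF-1α for destruction, gave 1071 with vehicle and 789 with lipid A in WT, and 892 and 587 in KO. It was 1.36-fold lower with lipid A in WT and 1.52-fold lower in KO, and its further probe set gave the same direction in both. Egln3, a hydroxylase that HIF itself induces, stayed close to background, with 86.6, 66.3, 132 and 149.7 in the same order of arrays. Its signal was at least 2.00-fold higher in KO than in WT under lipid A, but the further probe set ran the other way, with 96.4 in WT and 31.2 in KO, the latter at background.

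Among the glucose transporters, Slc2a6 (GLUT6), a transporter found mostly on intracellular membranes, differed with lipid A while Slc2a1 and Slc2a3 stayed within 2-fold. Slc2a6 gave 1489.7 with vehicle and 6050.4 with lipid A in WT, and 466 and 6849.5 in KO. Lipid A signals exceeded vehicle signals by 4.06-fold in WT and by 14.7-fold in KO. The 2 lipid A signals differed by 1.13-fold, whereas the vehicle signal was 3.19-fold lower in KO, so that the wider span in KO came with the lower vehicle array. Slc2a6 had 1 probe set, and no other probe set was at hand as a check. Slc2a1 (GLUT1), the main glucose transporter of activated macrophages, gave 5057, 5010.0, 6277 and 6290.4. Its log2 difference with lipid A was -0.01 in WT and smaller in KO, and it was 1.24-fold higher in KO than in WT under vehicle, but this turned to a log2 difference of -0.06 with arrays at equal medians and of -0.10 at equal ribosomal protein medians. Slc2a3 (GLUT3) was near background, between 105 and 167, and its further probe sets gave differences of both signs.

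Hexokinases carry out the step that traps glucose in the cell. Hk2, the isoform that activated cells induce, gave 2405 with vehicle and 3551 with lipid A in WT, and 2021 and 4982 in KO. Both lipid A arrays were above both vehicle arrays, by 1.48-fold in WT and by 2.47-fold in KO. Hk3, an isoform of myeloid cells, lay between 17608 and 19667 on the 4 arrays, a span of 1.12-fold. Hk1, the isoform present in most tissues, gave 1673, 1488, 2227 and 1547 in the order of arrays above, highest in KO vehicle. Its log2 difference of 0.41 between KO and WT vehicle became 0.04 at equal medians. Hk2 was thus the 1 hexokinase past 2-fold with lipid A.

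The enzymes of upper glycolysis were lower in KO lipid A than on the other arrays in most cases. Of the 8 genes of this group, 7 had a signal below that of KO vehicle (87.5%, against 60.6% of all detected genes), with a median log2 difference of -0.77, and in WT 4 were below vehicle and 4 above it, with a median of -0.05. Pfkp was the exception in KO under each of the 4 scalings. Pfkfb3 makes fructose-2,6-bisphosphate, the activator of phosphofructokinase, and gave 444 with vehicle and 579 with lipid A in WT, and 526 and 204 in KO. With lipid A it was 2.57-fold lower in KO and 1.30-fold higher in WT, and under lipid A it was 2.83-fold lower in KO. The further probe set of Pfkfb3 was at background on all 4 arrays, and with the mean of both the genotype difference was -0.75 on the log2 scale, under 2-fold. Pfkfb4, a related enzyme, gave 631, 520.2, 596 and 351 in the order of arrays above, again lowest in KO lipid A.

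Tpi1, triosephosphate isomerase, gave 8818 with vehicle and 6032 with lipid A in WT, and 9515 and 4067 in KO. It was lower with lipid A in both genotypes, by 1.46-fold in WT and 2.34-fold in KO. Its other 2 probe sets gave log2 differences of -1.18 and -1.02 in KO and of -0.51 and -0.63 in WT. The 3 probe sets thus placed both lipid A arrays below both vehicle arrays.

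Of the phosphofructokinases, which commit sugar to glycolysis, the 3 isoforms did not run together. Pfkl, the liver isoform, gave 306 with vehicle and 363 with lipid A in WT, and 312 and 184 in KO, and Pfkm, the muscle isoform, 192, 176, 232 and 116. Both were lowest in KO lipid A, at 1.70-fold and 2.00-fold under KO vehicle, with Pfkm just inside the threshold. Of the further probe sets of Pfkl, 1 was also lowest in KO lipid A (195), and the other, with 75.1, 82.6, 182 and 109, was higher in KO than in WT under both treatments. Pfkp, the platelet isoform, gave 3064, 4389, 3953 and 5366 and was highest in KO lipid A, and lipid A signals exceeded vehicle signals by 1.43-fold in WT and 1.36-fold in KO. Aldolase A, encoded by Aldoa, lay between 28399.8 and 28987 on 3 arrays and at 22127 in KO lipid A. Its 5 probe sets gave log2 differences between -0.57 and 0.20 for lipid A in KO. Aldoc, an aldolase also found in brain, gave 451, 333, 259.7 and 181, lower in KO than in WT under each treatment by 1.74-fold and 1.84-fold.

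**Figure D3:**
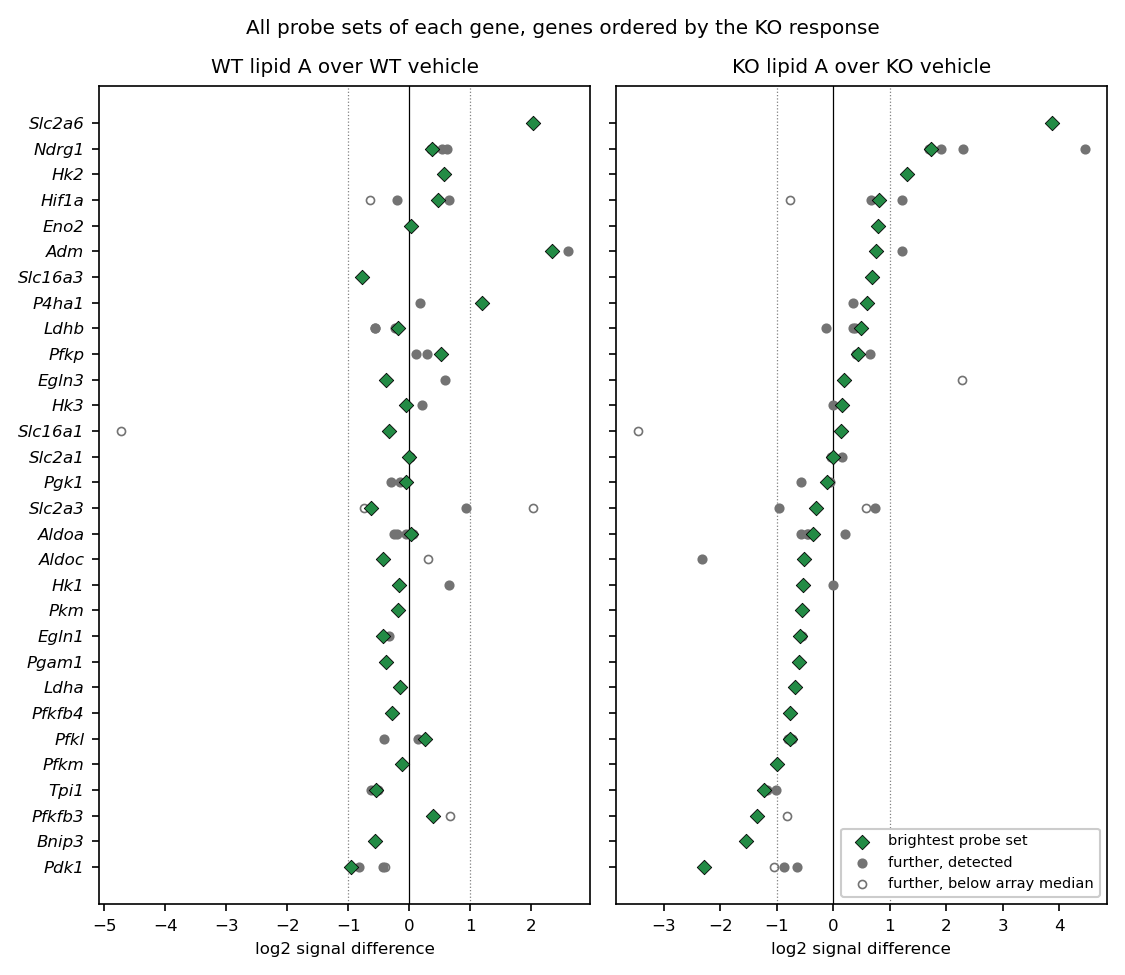
Log2 difference between lipid A and vehicle for every probe set with the gene's single symbol, in WT (left) and KO (right), for the 30 genes with a signal at or above an array median, ordered by the KO response. Green diamonds are the brightest probe set of a gene, filled grey points are further detected probe sets and open points lie below the array median. All 5 probe sets of Ndrg1 lie above 1 in KO, the farthest by a ratio to a background signal, and all 3 of Tpi1 lie below -1.

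In lower glycolysis none of the 4 genes measured differed over 2-fold in any comparison, Gapdh and Eno1 being left out. Pgk1, phosphoglycerate kinase, lay between 10789 and 11911, and differed with lipid A by 1.04-fold in WT and 1.09-fold in KO. Pgam1, phosphoglycerate mutase, gave 17629 with vehicle and 13459.6 with lipid A in WT, and 15013 and 9835 in KO. Pkm, pyruvate kinase, gave 8152, 7155, 9590.3 and 6501 in the same order, and both genes were lower with lipid A in each genotype, by 1.53-fold and 1.48-fold in KO. Eno2, an enolase that HIF induces, ran the other way in KO, with 426 for vehicle and 736 for lipid A, against 634 and 647 in WT. For Gapdh, the 3 control probe sets of the array lay between 14348 and 24426. Of its probe sets shared with other genes, 1 was 3.58-fold lower with lipid A in KO (481 and 134), and the other 2 differed by 1.04-fold and 1.06-fold. The ratio of its 3′ to its 5′ probe set, a sign of RNA integrity, was 0.945, 1.07, 1.35 and 1.06.

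At the branch between lactate and mitochondria, Pdk1 was the gene of the list with the widest lower difference with lipid A in KO. Pdk1 encodes a kinase that shuts pyruvate dehydrogenase and so keeps pyruvate out of mitochondria. It gave 414 with vehicle and 213 with lipid A in WT, and 685 and 140.4 in KO. It was 1.94-fold lower with lipid A in WT and 4.88-fold lower in KO, with both lipid A arrays below both vehicle arrays. Of its further probe sets, 2 were detected, and their log2 differences in KO were -0.87 and -0.64, smaller than the -2.29 of the brightest. The same 2 probe sets did not place the genotypes alike, since under lipid A 1 of them gave 79.5 in WT and 184 in KO and the other 135 and 94.7.

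Ldha, the lactate dehydrogenase subunit that favours lactate, gave 12163 with vehicle and 10995 with lipid A in WT, and 16330.4 and 10164 in KO, so it was highest in KO vehicle and 1.61-fold lower with lipid A in KO. Its log2 difference of 0.43 between KO and WT vehicle, however, became 0.05 at equal medians and 0.01 at equal ribosomal protein medians. Ldhb, the other subunit, lay between 359 and 502. Slc16a1 (MCT1), which carries lactate across the membrane, lay between 1439.6 and 1827. Slc16a3 (MCT4), the lactate exporter of glycolytic cells, was close to background, with 102, 60.0, 93.9 and 151, and was at least 2.02-fold higher in KO than in WT under lipid A. Of this group of 5 genes, Pdk1 was therefore the 1 gene past 2-fold with lipid A.

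The other hypoxia response genes differed in opposite directions. Bnip3, a mitophagy receptor induced by HIF, gave 948 with vehicle and 642 with lipid A in WT, and 996 and 341 in KO. It was lower with lipid A in both genotypes, by 1.48-fold in WT and 2.92-fold in KO. Ndrg1, a stress and hypoxia response gene, gave 3625, 4680.2, 1865 and 6136 in the same order. With lipid A it was higher by 1.29-fold in WT and by 3.29-fold in KO, and 3 further probe sets gave log2 differences between 1.69 and 2.29 in KO, while the fourth had a background signal in KO vehicle and was at least 7.04-fold higher. As for Slc2a6, its KO vehicle signal was the lowest of the 4, at 1.94-fold under WT vehicle.

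P4ha1, a collagen prolyl hydroxylase subunit induced by HIF, gave 669 with vehicle and 1523 with lipid A in WT, and 822 and 1249.7 in KO. With lipid A it was higher by 2.28-fold in WT and by 1.52-fold in KO, and its further probe set gave log2 differences of 0.17 and 0.35, so that the mean of both in WT, 0.68, was under 2-fold. Adm, which encodes the vasodilator peptide adrenomedullin, gave 21.4, 109, 91.1 and 154. Since the WT vehicle signal was background, its lipid A difference in WT was at least 1.67-fold, and its genotype difference under vehicle at least 1.40-fold. The further probe set of Adm gave 19.7, 119.7, 43.0 and 99.4, with both lipid A arrays above both vehicle arrays, as with the brightest probe set. Bnip3 and Ndrg1, both known HIF targets, were thus on opposite sides of 2-fold with lipid A in KO.

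Between the genotypes, few genes of the list passed 2-fold. Under lipid A, Egln3 and Slc16a3 were higher in KO and Pfkfb3 was lower, so that 2 of 30 genes were higher (6.67%, against 10.6% of 12335 genes) and 1 was lower (3.33%, against 10.3%). With both lipid A arrays required to reach their median, 0 of 28 genes were higher, since Egln3 and Slc16a3 had background signals in WT, and Pfkfb3 was lower, against 3.60% and 3.77% of all genes so measured. Pfkl and Bnip3 lay just inside the threshold, at 1.98-fold and 1.88-fold lower in KO lipid A, Pfkl by its brightest probe set alone, since the other 2 gave log2 differences of -0.36 and 0.40. Under vehicle, Slc2a6 was lower in KO and Adm higher by a ratio to a background signal, 1 of 30 in each direction, against 11.1% and 6.17% of 12002 genes, and with both arrays at their median 0 of 29 were higher (3.48% of all genes) and 1 lower (2.08%). The medians of the list were 0.04 under lipid A and 0.04 under vehicle, and those of all detected genes -0.01 and 0.10.

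**Figure D4:**
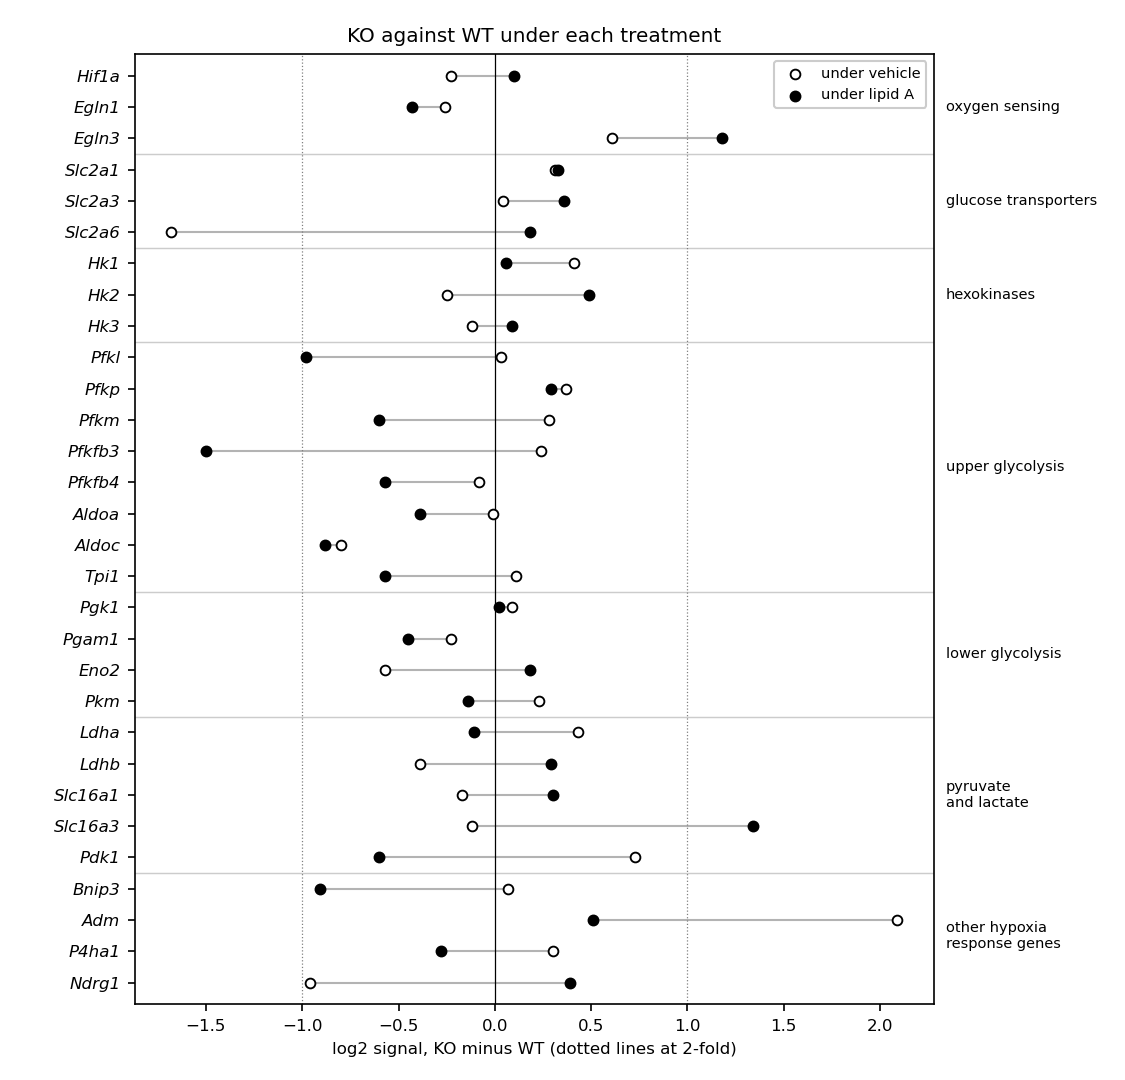
Log2 difference between KO and WT for the 30 genes with a signal at or above an array median, under vehicle (open points) and under lipid A (filled points), ordered by role. Dotted lines mark 2-fold. The filled point of Pfkfb3 lies at -1.50 and the open point of Slc2a6 at -1.68, while most genes lie between the dotted lines under both treatments.

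The lipid A response of KO minus that of WT, on the log2 scale, exceeded 1 for Slc2a6 (1.85), Slc16a3 (1.46) and Ndrg1 (1.35), and it was below -1 for Pfkfb3 (-1.74), Adm (-1.58), Pdk1 (-1.33) and Pfkl (-1.01). Where signals under the array median were raised to it, the value of Adm became 0.02 and that of Slc16a3 1.14, since 1 of their 4 signals was background, and the other 5 values stayed as they were. The further detected probe sets of Pdk1 gave -0.21 and -0.04 and those of Pfkl -0.40 and -0.88, so that neither passed 1 in size beyond its brightest probe set, whereas the further probe sets of Ndrg1 without a background signal gave between 1.29 and 1.76. With arrays at equal medians Pdk1 was at -0.98 and Pfkl at -0.66. The genes past 1 in size were 3 of 30 genes above it (10.0%, against 12.2% of 13567 genes) and 4 of 30 below -1 (13.3%, against 17.0%). With all 4 arrays at their median, 2 of 27 genes were above 1 (7.41%, against 3.22%) and 3 below -1 (11.1%, against 6.17%). In upper glycolysis all 8 genes had a response below that of WT, against 56.4% of all genes. The median of the 8 was -0.58, where that of all genes was -0.10. Pfkp and Aldoc, however, were each only at -0.08. Both turned to the other side with arrays at equal medians or at equal ribosomal protein medians, which left 6 of 8. The lowest of the 4 signals lay on the KO lipid A array for 13 of the 30 genes (43.3%, against 33.5% of all genes), on WT vehicle for 3 (10.0%, against 23.0%), on WT lipid A for 7 (23.3%, against 25.6%) and on KO vehicle for 7 (23.3%, against 17.9%). The 13 genes were Egln1, Pfkl, Pfkm, Pfkfb3, Pfkfb4, Aldoa, Aldoc, Tpi1, Pgam1, Pkm, Ldha, Pdk1 and Bnip3. The same 13 genes were lowest in KO lipid A when the arrays were set to equal medians, a setting chosen for this count after the data were seen. The highest signal lay on KO lipid A for 12 genes (40.0%, against 24.8%), on KO vehicle for 9 (30.0%, against 35.7%), on WT vehicle for 5 (16.7%, against 22.1%) and on WT lipid A for 4 (13.3%, against 17.3%). With 1 array behind each signal, a property of the KO lipid A array and an effect of the condition cannot be told apart.

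Other genes of the HIF pathway lay below vehicle more often than above it with lipid A, at 19 of 28 detected genes in each genotype (67.9%, against 56.5% of all detected genes in WT and 60.6% in KO). In WT 3 were over 2-fold higher (10.7%, against 11.8%) and 5 lower (17.9%, against 8.94%), and in KO 1 was higher (3.57%, against 11.2%) and 5 lower (17.9%, against 16.0%). Ak4, a mitochondrial adenylate kinase induced by HIF, was higher with lipid A by 3.11-fold in WT (209 and 649) and by 5.09-fold in KO (182 and 925), and another probe set gave 3.73-fold and 5.09-fold. The others higher in WT were Ddit4 at 2.47-fold (83.6 and 207) and Stc2 at 2.17-fold (115 and 250.1). Mxi1, an antagonist of Myc that HIF induces, was lower with lipid A, with 3441 and 1477 in WT and 2279 and 589 in KO, or 2.33-fold and 3.87-fold. A further probe set of Mxi1 gave 334 and 113 in WT and 253 and 115 in KO. Bhlhe40 was lower with lipid A by 2.12-fold in WT (9584 and 4519) and by 2.24-fold in KO (12322 and 5493). The brightest probe set of Hif3a was 2.39-fold lower in KO (264 and 110.5), but another was higher there (35.8 and 149), from a background vehicle signal. Hif3a, P4ha2 and Ndufa4l2 in WT and Arnt2 and Zfp395 in KO were also lower by the measured ratio, each with a background lipid A signal.

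The genotype difference that was clearest among these genes was that of Tfrc. Tfrc encodes the transferrin receptor, which brings iron into the cell and is a HIF target that iron supply also regulates. It gave 17795 with vehicle and 14744 with lipid A in WT, and 2962 and 2691 in KO. It was 6.01-fold lower in KO under vehicle and 5.48-fold lower under lipid A, and a further probe set was lower by 4.60-fold and 2.61-fold, while the remaining probe set was at background in KO. Both KO arrays were below both WT arrays for each of the 3 probe sets, and with lipid A the brightest differed by 1.21-fold in WT and 1.10-fold in KO. Gbe1, the glycogen branching enzyme, was 2.73-fold lower in KO lipid A (1575 and 578), and Ddit4, an inhibitor of mTORC1 signaling, was 2.76-fold higher in KO vehicle (83.6 and 231). Arnt2 and P4ha2 under lipid A and Zfp395 and Ndufa4l2 under vehicle passed 2-fold against background signals. Epas1, which encodes HIF-2α and was named after its values were seen, gave 3685, 2589, 8661 and 4636, or 2.35-fold higher in KO under vehicle, with 1.23-fold from a further probe set. Equal medians lower every log2 difference of KO over WT under vehicle, that of Tfrc from -2.59 to -2.96. The fold of Epas1 thus depends on the scaling.

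Neighbouring pathways of sugar metabolism stayed mostly within 2-fold, and their counts stand beside 11.8% higher and 8.94% lower of all detected genes with lipid A in WT and 11.2% and 16.0% in KO. In the pentose phosphate pathway, which branches from the first product of hexokinase, 0 of 7 detected genes passed 2-fold with lipid A in WT, and in KO H6pd was 2.44-fold lower (446 and 183) and Shpk was higher against a background signal. Taldo1, transaldolase, gave 23205 and 22649 in WT and 19408 and 13207 in KO. Around pyruvate dehydrogenase, lipid A in WT left 0 of 11 detected genes over 2-fold higher and 1, Pdk2, lower against background, and in KO 0 of 9 passed in either direction. In glycogen metabolism all 9 detected genes had a lower signal with lipid A in KO, with a median of -0.75 where 60.6% of all detected genes were lower with a median of -0.20, and 2 of the 9 (22.2%) passed 2-fold, namely Gyg, glycogenin, at 2.08-fold (9315 and 4481) and Phka1 against background. In WT 7 of the 9 were lower (77.8%, against 56.5%), with a median of -0.53 against -0.08, and Gys1 passed 2-fold against background. Among further glycolysis and glucose transport genes, 1 of 13, Ldhc, was over 2-fold higher in WT against a background signal, and in KO 2 of 15 were higher (13.3%) and 4 lower (26.7%). The lower genes were Bpgm, which makes 2,3-bisphosphoglycerate, at 2.71-fold (343 and 127), Slc2a8 at 2.08-fold (597 and 287), and Hkdc1 and Pklr against background signals. The other 2 probe sets of Bpgm gave log2 differences of -0.58 and 0.06. The higher genes were Slc2a4 and Slc2a9, each from a background signal that bounds the fold only at 1.85 and 1.03 or more.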

How the data were processed

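Gene expression was measured on 1 Affymetrix Mouse Genome 430 2.0 array for each of 4 groups. The deposited intensity values of the probe sets are linear signals, and the software by which the authors obtained them is not given in the sources consulted. On each array the mean was 500.004 once 2% of values had been trimmed from either end, from which a scaling of whole arrays was inferred, and no further normalization was applied. The number of arrays limits the precision.

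Of 45101 probe sets, 64 controls were left out. By the annotation of the platform, 34945 of the remaining probe sets carry 1 gene symbol, 932 carry several and 9160 carry none. Each gene was represented by the probe set with 1 symbol that was brightest by mean log2 signal, and further probe sets served as a check.

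Log2 signals were compared in 4 pairs of groups, and the difference of the 2 lipid A responses was taken from them. A gene was called when it differed over 2-fold and the higher signal reached the median of its array, which stood in for the detection calls of the study. Where the lower signal was below the median of its array, the fold is a lower bound against that median. No test was run. The members and the gene lists were chosen with earlier results of these data known. Each gene of the list is named, with its 4 signals where it passed 2-fold, and up to 4 genes of each further list with the widest difference in a comparison. Other genes of the further lists are named where they belong to a count that is given. The calling step was tested on simulated data. The alternatives were 3 other scalings, 2 other ways from probe sets to genes, a floor at the array median, 2 other detection filters and thresholds of 1.5-fold and 3-fold. Promoters came from the RefSeq table of GRCm38.p6 as exact matches. Scripts ran in Python 3.11.15 (pandas 2.3.3, numpy 2.4.6, matplotlib 3.10.9, SciPy 1.17.1).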

Additional observations from a re-analysis of the deposited data

Results flagged for a closer look

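Pfkfb3 had opposite signs with lipid A in the 2 genotypes, at 0.38 on the log2 scale in WT and -1.36 in KO, a difference of -1.74. The WT value lay within the SD of 0.39 between probe sets of 1 gene and was 0.18 at equal medians. A rise in WT therefore cannot be told from no difference. The genotype difference of Pfkfb3 was 0.24 under vehicle and -1.50 under lipid A. The genotype difference of Slc2a6 was -1.68 under vehicle and 0.18 under lipid A, 1.85 apart. That of Slc16a3 was -0.12 under vehicle and 1.34 under lipid A, 1.46 apart, from signals near background. These opposite signs were not tested, since each group has 1 array, and for Slc2a6 the lipid A value became -0.11 at equal ribosomal protein medians, which gives both the same sign. The vehicle value of Pfkfb3 likewise became -0.13 at equal medians and -0.17 at equal ribosomal protein medians, so that its genotype differences then share a sign, while its lipid A responses kept opposite signs under each of the 4 scalings.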

How the results depend on the processing

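No paired analysis was possible because each group has 1 array and the labels carry no replicate numbers. For lipid A in WT, the count of 3 higher genes was 2 or 3 under every alternative run, P4ha1 being under 2-fold at equal medians (0.99) and with the mean over probe sets (0.68) and Adm with signals raised to the array median (0.74), while the count of lower genes, 0, became 1 with arrays at equal medians, 1 with the mean over probe sets and 3 at 1.5-fold, and the median of -0.13 became -0.33 at equal medians. For lipid A in KO, the 3 higher and 4 lower genes became 8 and 10 at 1.5-fold, and the lower genes 1 at 3-fold. The KO median of -0.22 became -0.06 at equal medians, -0.13 at equal ribosomal protein medians, -0.12 with shared probe sets allowed and -0.31 with no detection filter.

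For KO against WT under lipid A, the 2 higher genes became 1 at equal ribosomal protein medians, and 0 with both arrays at their median and at 3-fold. The 1 lower gene became 2 at equal medians, 4 at equal ribosomal protein medians, 6 at 1.5-fold and 0 at 3-fold. The median of 0.04 became -0.25 at equal ribosomal protein medians, -0.11 with the mean over probe sets and -0.05 with both arrays at their median. Under vehicle, the 1 higher gene became 0 with signals raised to the array median and with both arrays at their median, 2 with no detection filter and 3 at 1.5-fold. The 1 lower gene became 3 at equal medians, at equal ribosomal protein medians, with the mean over probe sets and at 1.5-fold. The median of 0.04 became -0.33 at equal medians, -0.05 with quantile normalization and -0.38 at equal ribosomal protein medians.

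For the difference of the responses, 3 higher and 4 lower genes became 6 and 2 at equal medians, 6 and 7 at 1.5-fold, and 1 and 1 at 3-fold, and the median of -0.12 became 0.23 at equal medians and 0.01 at equal ribosomal protein medians. These scalings also moved all genes. The median over all detected genes went from 0.10 to -0.27 at equal medians and to -0.32 at equal ribosomal protein medians for KO over WT under vehicle, and from -0.01 to -0.30 at equal ribosomal protein medians for KO over WT under lipid A. Where shared probe sets were allowed, Hk1 was represented by one shared with ribosomal protein genes. For the 15 called differences of single genes, the alternatives gave 90 values. Of these, 1 reversed, namely Egln3 in KO over WT under lipid A, at -0.22 with the mean over probe sets, and 7 moved beyond the spread between probe sets. Some of the 90 could not move. Genes with 1 probe set keep their value with the mean over probe sets, and genes above every array median keep it with raised signals. The cause of these shifts was not tested. Signals near the array median, such as those of Egln3, Slc16a3, Slc2a3 and Adm, carry little information on a fold.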
